A study of Homo sapiens with 30 samples.

Results

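Insulin-like growth factor (IGF) binding and signalling was followed through 10 genes: the binding proteins IGFBP1, IGFBP2, IGFBP3, IGFBP4, IGFBP6 and IGFBP7, the receptors IGF1R and IGF2R, and the adaptors IRS1 and IRS2. They were taken by name from 26801 genes measured by RNA sequencing in A549, an established human lung adenocarcinoma cell line. All 10 passed the filter on low values (at least 1 FPKM in at least 3 libraries) that 12086 genes passed, and FPKM stands for sequenced fragments per kilobase of transcript, scaled to library size. The 30 libraries form 10 groups of 3. They are RSRP1 knockout cells exposed to a magnetic field, labelled 2 H (KOA_EX), or not exposed (KOA_NE), knockout cells that carry the label iR (iR_KOA_EX and iR_KOA_NE), knockout cells with iR and D3 (iR_KOA_D3_EX and iR_KOA_D3_NE), wild-type cells with iR (iR_WTA_EX and iR_WTA_NE) and wild-type cells with iR and D3 (iR_WTA_D3_EX and iR_WTA_D3_NE). The sources used here do not give the meaning of iR or D3, so both are kept as names, nor whether the knockout is 1 clone. No wild type without iR and no D3 without iR is among the groups. The libraries labelled as replicates are not said to be separate cultures, and the p-values therefore describe variation among libraries that may be only technical.

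IGF1 and IGF2 are secreted peptides that bind IGF1R, a receptor tyrosine kinase that promotes growth and survival. The activated receptor phosphorylates the adaptors IRS1 and IRS2, which recruit phosphoinositide 3-kinase and so switch on AKT and mTOR, and AKT in turn holds FOXO transcription factors out of the nucleus. IGF2R, also the cation-independent mannose 6-phosphate receptor, takes IGF2 up for degradation and sorts lysosomal enzymes. The binding proteins hold IGFs outside the cell: IGFBP1 is a short-lived protein whose gene is repressed by insulin, IGFBP3 is the main carrier in serum, IGFBP4 blocks IGF action until the protease PAPPA cleaves it, IGFBP6 prefers IGF2, and IGFBP7 binds IGFs only weakly.

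The libraries held 34620432 to 38939336 recovered reads, and the members were covered by 112 reads (IGFBP2, in its lowest library) to 147368 reads (IGFBP4, in its highest). RSRP1, the targeted gene, lay at 2.09 to 7.95 FPKM in the 18 knockout libraries and at 37.4 to 63.4 FPKM in the 12 wild-type libraries. Of 11 epithelial and A549 markers all 11 reached 1 FPKM in at least 1 library, with a summed level of 6517 to 9210 FPKM. Among them EPCAM (0.402 to 1.85 FPKM), CLDN4 (0.225 to 1.14 FPKM) and KRT19 (0.0194 to 22.8 FPKM) did not reach it in every library. By the same count 1 of 6 fibroblast markers (COL1A1), 1 of 5 endothelial markers (CDH5) and 2 of the 4 leukocyte markers in the table (CD14 and CD68) reached 1 FPKM. PTPRC, which defines leukocytes, stayed at or under 0.0411 FPKM. Libraries of one group correlated at 0.990 to 0.998 over the tested genes. The 13 mitochondrially encoded genes made up a mean of 29.4% of all FPKM in iR_KOA_D3_NE, 24.6% in iR_KOA_NE and 22.9% in iR_WTA_D3_NE. With exposure their share was 24.4% in KOA_EX, against 28.4% in KOA_NE, and 25.8% in iR_KOA_EX, against 24.6% in iR_KOA_NE. The part of these genes in the differences was not tested.

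The 10 genes covered a wide range of levels, with IGFBP4 and IGFBP3 far above the rest. IGFBP4 averaged 1302 FPKM over the 30 libraries and ranked 27 among all 26801 genes, and IGFBP3 averaged 339.7 FPKM at rank 139. IGFBP6 followed at 60.7 FPKM, and the other 7 averaged from 8.27 (IGFBP1) to 23.3 FPKM (IGF2R). Within each library IGFBP4 supplied 68.1% to 83.9% of the summed FPKM of the 6 binding proteins, IGFBP3 11.6% to 24.7%, and each of the other 4 at most 5.00%. Transcripts of the ligands were close to nil: IGF1 was at or under 0.0114 FPKM and listed at 0 in 16 libraries, and IGF2 was at or under 0.0531 FPKM. The insulin receptor INSR lay at 0.612 to 1.64 FPKM.

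The members differed most in how far they moved between groups. The ratio of the highest to the lowest group mean was 12.8 for IGFBP2, 5.37 for IRS2, 2.62 for IGFBP7 and 2.20 for IGFBP1. It was 1.94 for IGFBP6, 1.91 for IGFBP3 and 1.76 for IGFBP4. The receptors and IRS1 moved least, with ratios of 1.38 for IRS1, 1.30 for IGF2R and 1.23 for IGF1R.

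**Figure D1:**
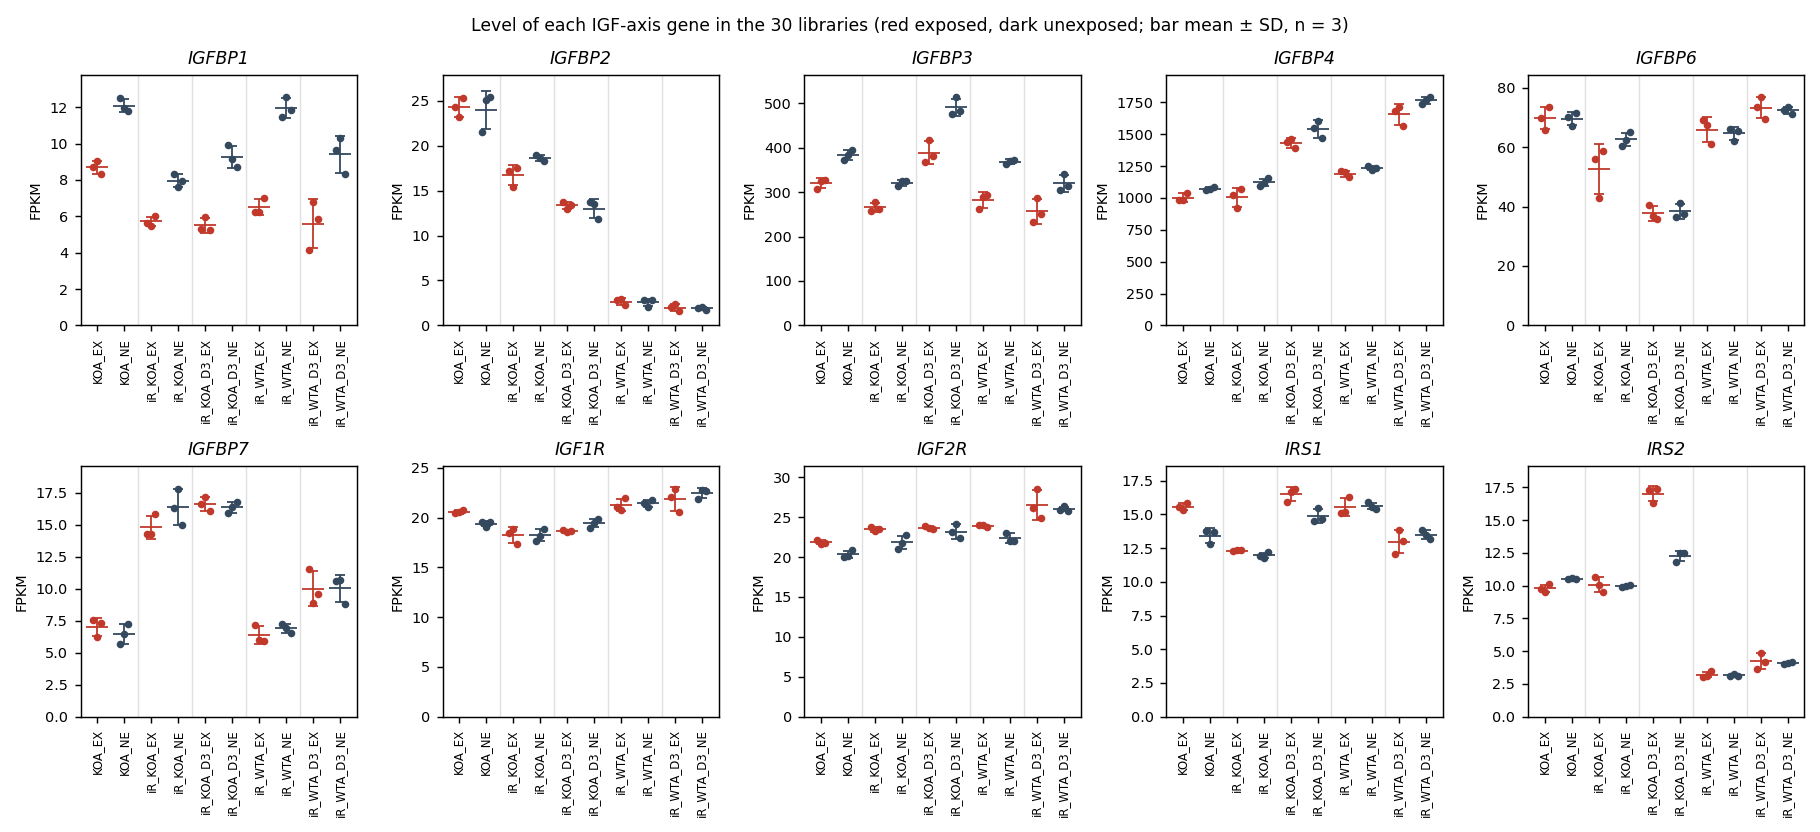
FPKM of the 10 genes in all 30 libraries, 1 panel per gene with its own axis from 0, exposed groups in red and unexposed groups in dark; bars give mean ± SD of 3 libraries. IGFBP2 and IRS2 split by genotype, with every knockout library above every wild-type library, and IGFBP1 and IGFBP3 were lower in each exposed group than in the unexposed group beside it.

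The first question was what the magnetic exposure did to these genes in each of 5 backgrounds. IGFBP1 and IGFBP3 fell in all 5, which use no library in common, and no other member passed the test in more than 2. Differences are on the log2(FPKM + 1) scale, exposed minus unexposed, with the standard error from limma's moderated test and p-values adjusted by Benjamini-Hochberg over the 12086 genes, threshold 0.05. Of all tested genes 951 (7.87%) fell in all 5 backgrounds and 723 (5.98%) rose in all 5. Fewer cells and less RNA per cell cannot be told apart in bulk RNA.

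IGFBP1 read 6.25, 6.23 and 7.03 FPKM in iR_WTA_EX libraries, against 11.5, 12.5 and 11.8 FPKM in iR_WTA_NE libraries. With D3 the wild type gave 4.14, 6.78 and 5.86 FPKM exposed and 9.64, 10.3 and 8.32 FPKM unexposed. In both pairs every exposed library lay below every unexposed one, with differences of −0.79 ± 0.094 (adjusted p = 7.19e-07) and −0.68 ± 0.094 (adjusted p = 3.00e-06). In the knockout the 3 exposed libraries read 8.71, 9.06 and 8.35 FPKM in KOA_EX, against 12.5, 12.0 and 11.8 FPKM in KOA_NE, a difference of −0.43 ± 0.094 (adjusted p = 0.000614). They read 5.66, 5.48 and 6.02 FPKM in iR_KOA_EX, against 8.31, 7.64 and 7.94 FPKM in iR_KOA_NE (−0.42 ± 0.094, adjusted p = 0.00138). With D3 they read 5.28, 5.98 and 5.23 FPKM in iR_KOA_D3_EX, against 9.91, 9.17 and 8.74 FPKM in iR_KOA_D3_NE (−0.66 ± 0.094, adjusted p = 3.46e-06). The groups were separate in every background, and exposed means were 0.544 to 0.720 times the unexposed means. Although the wild type with iR gave the largest fall, the difference between genotypes did not pass the test (0.37 ± 0.133, adjusted p = 0.311), nor did any other interaction of exposure for IGFBP1.

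IGFBP3 lies beside IGFBP1 on chromosome 7 (IGFBP1 at chr7:45888488-45893660, IGFBP3 at chr7:45912245-45921272 on the minus strand, RefSeq, GRCh38.p14), with 18584 bases and 0 RefSeq genes between them. Its fall was smaller in ratio and taken from a far higher level. It read 262, 290.0 and 294 FPKM in iR_WTA_EX, against 363, 370.2 and 373 FPKM in iR_WTA_NE (−0.39 ± 0.060, adjusted p = 2.60e-05), and 367, 418 and 381 FPKM in iR_KOA_D3_EX, against 476, 513 and 483 FPKM in iR_KOA_D3_NE (−0.34 ± 0.060, adjusted p = 6.08e-05). Exposed and unexposed libraries were again separate in all 5 backgrounds. The other 3 differences were −0.32 in iR_WTA_D3 (adjusted p = 0.000144), −0.27 in iR_KOA (adjusted p = 0.00112) and −0.26 in KOA (adjusted p = 0.00102). The 250 bases before its start, given 5′ to 3′ on the gene's strand from RefSeq (GRCh38.p14, chr7:45921273-45921522, minus strand), are 76.0% G or C:
IGFBP3: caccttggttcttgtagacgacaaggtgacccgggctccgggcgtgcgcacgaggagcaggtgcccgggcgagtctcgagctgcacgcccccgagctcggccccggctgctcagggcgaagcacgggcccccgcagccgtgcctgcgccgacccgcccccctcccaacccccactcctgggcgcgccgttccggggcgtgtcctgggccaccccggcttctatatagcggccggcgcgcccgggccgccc

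A set of 5 short motifs was searched on both strands of the RefSeq promoter windows, from 250 bases before to 50 after the start, which matched 8 of the 10 members. They were the forkhead core GTAAACA, held by 3.42% of all 35116 promoter windows, the insulin response core CAAAACA (4.92%), the heat shock pair GAANNTTC (6.77%), the CHOP-ATF composite TGATGNAA (3.62%) and the hypoxia core ACGTG (21.4%). The window of IGFBP3 holds no match to these letters. IGF1R, IGF2R and IRS1 hold the letters of the hypoxia core. In IGF2R, 3 times, and in IRS1 these letters lie within CACGTG, which reads as a match on both strands.

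IRS2, by contrast, rose with exposure, and in 1 background only. It read 17.3, 16.3 and 17.4 FPKM in iR_KOA_D3_EX, against 11.8, 12.5 and 12.5 FPKM in iR_KOA_D3_NE, so that the groups were separate and the exposed mean was 1.39 times the unexposed mean (0.44 ± 0.055, adjusted p = 5.81e-07). In the other 4 backgrounds its differences lay between −0.09 and 0.03, and none passed. The exposure difference was larger with D3 than without it in iR knockout cells, by 0.43 ± 0.078 (adjusted p = 0.00206). It was also larger in the knockout than in the wild type under D3, by 0.41 ± 0.078 (adjusted p = 0.00414). Both tests share the iR_KOA_D3 libraries, and the call on genotype was lost when only its 4 groups were fitted (adjusted p = 0.0741).

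IRS1, the other adaptor, read 15.5, 15.3 and 15.9 FPKM in KOA_EX, against 13.7, 12.8 and 13.7 FPKM in KOA_NE (0.20 ± 0.041, adjusted p = 0.000294). It also rose in iR_KOA_D3 (0.14, adjusted p = 0.00625) and did not pass in the other 3 backgrounds, at −0.06 to 0.04. IGF2R passed narrowly in KOA (0.10, adjusted p = 0.0477) and iR_KOA (0.10, adjusted p = 0.0436), with exposed means of 1.07 and 1.08 times the unexposed ones. Both calls were lost when genes were not filtered on low values (adjusted p = 0.0552 and 0.0556). IGF1R ranged from −0.06 to 0.08 over the 5 backgrounds and passed in none, and neither IGFBP2 nor IGFBP7 passed in any.

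IGFBP4 and IGFBP6 passed the test for a fall in iR_KOA, and both calls rested on 1 library. IGFBP6 read 56.0, 42.9 and 58.6 FPKM in the 3 iR_KOA_EX libraries, against 60.5, 62.3 and 65.0 FPKM in iR_KOA_NE (−0.26, adjusted p = 0.01). IGFBP4 read 1022, 923 and 1072 FPKM in iR_KOA_EX, against 1096, 1115 and 1155 FPKM in iR_KOA_NE (−0.16, adjusted p = 0.00682). Replicate 2 of iR_KOA_EX was the lowest for both and carried a mitochondrial share of 28.3%, against 24.6% and 24.5% in replicates 1 and 3 of that group. Without it the differences were −0.12 for IGFBP6 (adjusted p = 0.134) and −0.10 for IGFBP4 (adjusted p = 0.0703), and the 5 members past the test in iR_KOA became 2, IGFBP1 and IGFBP3. For IGFBP4 every exposed library lay below every unexposed one in all 5 backgrounds, with differences of −0.10 in KOA, −0.11 in iR_KOA_D3, −0.06 in iR_WTA and −0.09 in iR_WTA_D3 that did not pass. How many of all tested genes were separate in this way was not counted, here or for IGFBP1, IGFBP3 and IRS2. The call moved with the setting: quantile normalization gave −0.14 in KOA (adjusted p = 0.01) and −0.05 in iR_KOA (adjusted p = 0.359), and with only the compared groups KOA passed (adjusted p = 0.0256). No interaction of exposure passed for IGFBP4 or IGFBP6 (adjusted p = 0.188 or above). The summed FPKM of the 6 binding proteins was lower in each exposed group, for example 1893 ± 58 FPKM in iR_KOA_D3_EX and 2110 ± 87 FPKM in iR_KOA_D3_NE (SD, n = 3 each), a description that no test accompanies.

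By count, limma called 2 of the 10 members higher and 2 lower in KOA, where 18.8% of all tested genes rose and 22.7% fell. In iR_KOA 1 rose and 4 fell (background 13.1% and 22.3%), and in iR_KOA_D3 2 rose and 2 fell (17.3% and 27.8%). In iR_WTA 0 rose and 2 fell (11.4% and 17.2%; at an unadjusted p under 0.05, 1 and 2), and in iR_WTA_D3 0 rose and 2 fell (15.3% and 26.5%; unadjusted, 0 and 3). With 10 members these counts stand near the background. Tests of whether the exposure difference itself changed between backgrounds called 0 of the 10 for genotype without D3 (background 0.538%; unadjusted, 2), 1 for genotype with D3 (2.38%), 0 for iR (5.08%; unadjusted, 2), 1 for D3 in the knockout (4.14%) and 0 for D3 in the wild type (1.67%; unadjusted, 0).

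**Figure D2:**
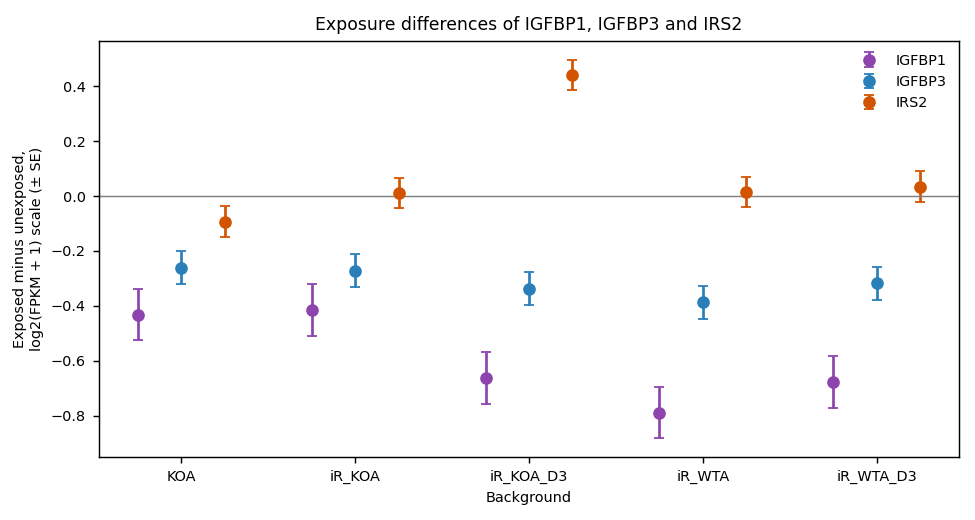
Exposed minus unexposed difference of IGFBP1, IGFBP3 and IRS2 on the log2(FPKM + 1) scale (y axis) in 5 backgrounds (x axis); bars are standard errors of the fit. IGFBP1 (−0.79 to −0.42) and IGFBP3 (−0.39 to −0.26) lie below 0 in all 5, and IRS2 stands clear of 0 only in iR_KOA_D3 (0.44).

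The genes around the members were read from 7 lists of 119 names, of which 118 are in the table and 98 were tested. Among the proteases of binding proteins and their inhibitors (8 tested of 13), PAPPA, the metalloprotease that releases IGF from IGFBP4, rose with exposure in all 5 backgrounds. It read 47.6, 48.3 and 47.1 FPKM in iR_KOA_D3_EX, against 35.2, 35.6 and 35.3 FPKM in iR_KOA_D3_NE (0.42 ± 0.032, adjusted p = 1.34e-10). The other differences were 0.40 in KOA, 0.29 in iR_KOA, 0.24 in iR_WTA and 0.31 in iR_WTA_D3, each with adjusted p at or under 3.67e-06. STC2, a secreted inhibitor of PAPPA, rose in 3 of the 5: 0.20 in KOA, 0.24 in iR_KOA and 0.26 in iR_WTA. No gene of that list fell in any of the 5, where 17.2% (iR_WTA) to 27.8% (iR_KOA_D3) of all tested genes fell.

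In the arm of PI3K, AKT and mTOR (32 tested of 33) the counts were 7 higher and 11 lower in KOA, 3 higher and 13 lower in iR_KOA, 6 higher and 15 lower in iR_KOA_D3, 5 higher and 7 lower in iR_WTA and 8 higher and 15 lower in iR_WTA_D3. Of all tested genes 18.8%, 13.1%, 17.3%, 11.4% and 15.3% rose and 22.7%, 22.3%, 27.8%, 17.2% and 26.5% fell, in the same order. The list's median difference ran from −0.11 in iR_KOA_D3 to −0.04 in iR_WTA, against −0.04 and −0.04 over all tested genes. PIK3R1, the regulatory subunit p85α that docks on IRS proteins, fell in all 5. It read 1.74, 1.61 and 1.81 FPKM in KOA_EX, against 3.64, 3.65 and 3.49 FPKM in KOA_NE (−0.76 ± 0.054, adjusted p = 3.04e-11), and the other 4 differences lay between −0.58 (iR_KOA_D3) and −0.34 (iR_WTA). RPTOR, the scaffold of mTOR complex 1, also fell in all 5 (−0.52 in iR_KOA_D3 to −0.27 in iR_WTA).

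Among insulin receptors, adaptors and phosphatases (22 tested of 27) the counts were 8 higher and 8 lower in KOA, 8 higher and 5 lower in iR_KOA, 6 higher and 7 lower in iR_KOA_D3, 8 higher and 4 lower in iR_WTA and 8 higher and 7 lower in iR_WTA_D3. For this list and those below, 18.8%, 13.1%, 17.3%, 11.4% and 15.3% of all tested genes rose, in the same order. Those that fell made up 22.7%, 22.3%, 27.8%, 17.2% and 26.5%. SOCS3, which targets IRS proteins for degradation, fell in KOA (−0.76), iR_KOA_D3 (−1.09) and iR_WTA_D3 (−0.70) and rose in iR_WTA (0.40). TRIB3, a pseudokinase that binds AKT, rose in the 4 iR backgrounds, by 0.47 to 0.56. Of FOXO factors and targets (16 tested of 22) the counts were 5 higher and 6 lower, 1 higher and 4 lower, 2 higher and 6 lower, 4 higher and 4 lower and 6 higher and 5 lower in the same order of backgrounds. FBXO32, a ubiquitin ligase that FOXO factors induce in muscle, fell in all 5, from −0.43 in KOA to −0.80 in iR_WTA_D3. In the arm of RAS and ERK (12 tested) the counts were 1 higher and 2 lower, 1 higher and 3 lower, 0 higher and 4 lower, 0 higher and 1 lower and 0 higher and 3 lower, and RPS6KA1, a kinase downstream of ERK, fell in all 5. Of IGF2 mRNA-binding proteins and genes of the mannose 6-phosphate route (6 tested) 1 or 2 passed in each direction in each background.

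The second question was how the RSRP1 knockout differed from the wild type. IGFBP2 and IRS2 were higher in the knockout in all 4 conditions with a wild type, IGFBP7 was higher in all 4, and IGF1R and IGFBP4 were lower in all 4. The 4 conditions share no library, and 18.3% of tested genes were higher in all 4 and 28.3% lower in all 4. The share of all tested genes whose knockout and wild-type libraries did not overlap was not counted. A difference between 2 cell lines carries whatever else separates them, and the knockout and any other difference between the lines cannot be told apart.

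IGFBP2, a binding protein often raised in tumours, read 19.0, 18.6 and 18.3 FPKM in iR_KOA_NE, against 2.79, 2.07 and 2.82 FPKM in iR_WTA_NE. Over all groups the 18 knockout libraries lay at 11.8 to 25.4 FPKM and the 12 wild-type libraries at 1.56 to 2.90 FPKM, with no overlap. The knockout mean was 6.78 times the wild-type mean with D3 and 6.33 times without it in exposed cells, and 6.85 and 7.28 times in unexposed cells. On the log scale these were 2.28 ± 0.090, 2.29 ± 0.090, 2.27 ± 0.090 and 2.47 ± 0.090 (adjusted p = 1.89e-17, 2.27e-17, 2.04e-17 and 4.63e-18).

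IRS2 read 9.88, 10.0 and 10.0 FPKM in iR_KOA_NE, against 3.11, 3.28 and 3.12 FPKM in iR_WTA_NE (1.40 ± 0.055, adjusted p = 2.52e-17). All knockout libraries stood above all wild-type libraries, which reached 4.86 FPKM at most. The knockout mean was 3.15 times the wild-type mean in that pair, 3.00 times with D3, 3.13 times under exposure and 4.02 times with D3 and exposure. The promoters of these 2 genes with the widest genotype differences, 250 bases upstream of the start from RefSeq (GRCh38.p14; IGFBP2 at chr2:216632578-216632827, plus strand; IRS2 at chr13:109786584-109786833, minus strand), are printed 5′ to 3′ on each gene's strand, with capitals for a motif match:
IGFBP2: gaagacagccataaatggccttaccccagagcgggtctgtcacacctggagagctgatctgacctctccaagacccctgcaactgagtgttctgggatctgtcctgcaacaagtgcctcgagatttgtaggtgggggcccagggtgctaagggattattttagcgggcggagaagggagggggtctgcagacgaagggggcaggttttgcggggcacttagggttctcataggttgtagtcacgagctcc
IRS2: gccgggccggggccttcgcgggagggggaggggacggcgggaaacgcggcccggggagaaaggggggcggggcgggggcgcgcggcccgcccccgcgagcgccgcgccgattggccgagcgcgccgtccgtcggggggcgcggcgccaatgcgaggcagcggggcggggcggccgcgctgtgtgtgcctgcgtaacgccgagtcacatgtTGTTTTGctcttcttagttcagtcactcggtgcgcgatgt
They differ in base composition, with 56.8% G or C in IGFBP2 and 76.4% in IRS2. The capitals in IRS2 are the insulin response core read on the opposite strand, at −40 to −34 from the start, and 4.92% of all promoter windows hold that core. The IGFBP2 window holds none of the 5 motifs.

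IGFBP7, a secreted protein also found in vessel walls and matrix, read 16.3, 17.8 and 15.0 FPKM in iR_KOA_NE, against 7.28, 6.91 and 6.58 FPKM in iR_WTA_NE (1.13 ± 0.089, adjusted p = 3.15e-11). The groups did not overlap in any of the 4 conditions, and the ratio of means was 1.66 and 1.63 with D3 and 2.33 and 2.37 without D3, in exposed and unexposed cells each. The sum of 5 endothelial markers moved with genotype too, at 0.463 to 0.624 FPKM in iR_KOA_NE, against 0.0144 to 0.0493 FPKM in iR_WTA_NE, and at 1.23 to 1.30 FPKM in iR_KOA_D3_NE, against 0.0418 to 0.106 FPKM in iR_WTA_D3_NE. In the knockout without iR the 2 did not go together: in KOA_NE the sum was 0.641 to 0.856 FPKM, while IGFBP7 read 5.70, 6.44 and 7.28 FPKM. CDH5 was the 1 of the 5 markers to reach 1 FPKM, PECAM1 stayed at or under 0.0114 FPKM and was listed at 0 in 11 libraries, and ERG was listed at 0 in 29. Their part in the IGFBP7 difference was not tested.

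IGF1R moved little and in 1 direction: it read 17.6, 18.2 and 18.9 FPKM in iR_KOA_NE, against 21.5, 21.0 and 21.8 FPKM in iR_WTA_NE (−0.22 ± 0.037, adjusted p = 9.48e-06). The other 3 differences were −0.21 under exposure, −0.20 with D3 and −0.22 with both. IGFBP4 was lower by a like amount, from −0.14 to −0.25. Its call with D3 in unexposed cells was lost under either scaling alternative (−0.10 with adjusted p = 0.0556 under median-of-ratios scaling, −0.08 with adjusted p = 0.0970 under quantile normalization). IGF2R passed as lower with D3 (−0.15 exposed and −0.16 unexposed) and did not pass without it (−0.03 and −0.03), the test of D3 by genotype in unexposed cells did not pass (−0.12, adjusted p = 0.125), and both calls were lost under both scalings (adjusted p = 0.0558 to 0.175).

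For the remaining 4 members the genotype difference in unexposed cells was not alike with and without D3, and the test of that is given with D3; in exposed cells it was not tested. For IGFBP3 it was 0.60 with D3 and −0.08 (adjusted p = 0.223) without D3 in exposed cells, and 0.62 with D3 and −0.20 without D3 in unexposed cells, where the last call was lost under quantile normalization (−0.14, adjusted p = 0.0932). For IRS1 it was 0.33 with D3 and −0.31 without D3 in exposed cells, and 0.13 with D3 and −0.36 without D3 in unexposed cells, each past the test. For IGFBP6 it was −0.94 with D3 and −0.33 without D3 in exposed cells, and −0.90 with D3 and −0.05 (adjusted p = 0.622) without D3 in unexposed cells. IGFBP1 passed in unexposed iR cells without D3 (−0.53, adjusted p = 2.40e-05) and in none of the other 3 conditions (−0.16 to 0.00), although without replicate 1 of iR_WTA_D3_EX it passed in exposed cells with D3 (−0.17, adjusted p = 0.0442).

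By count 3 members were higher and 5 lower in unexposed iR knockout cells, where 27.9% of all tested genes were higher and 37.4% lower. With D3 it was 5 and 4 (24.8% and 44.3%), in exposed iR cells 3 and 4 (27.4% and 38.2%) and with both 5 and 4 (26.0% and 43.9%). With over 60% of all genes past the test, these counts set the members little apart.

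**Figure D3:**
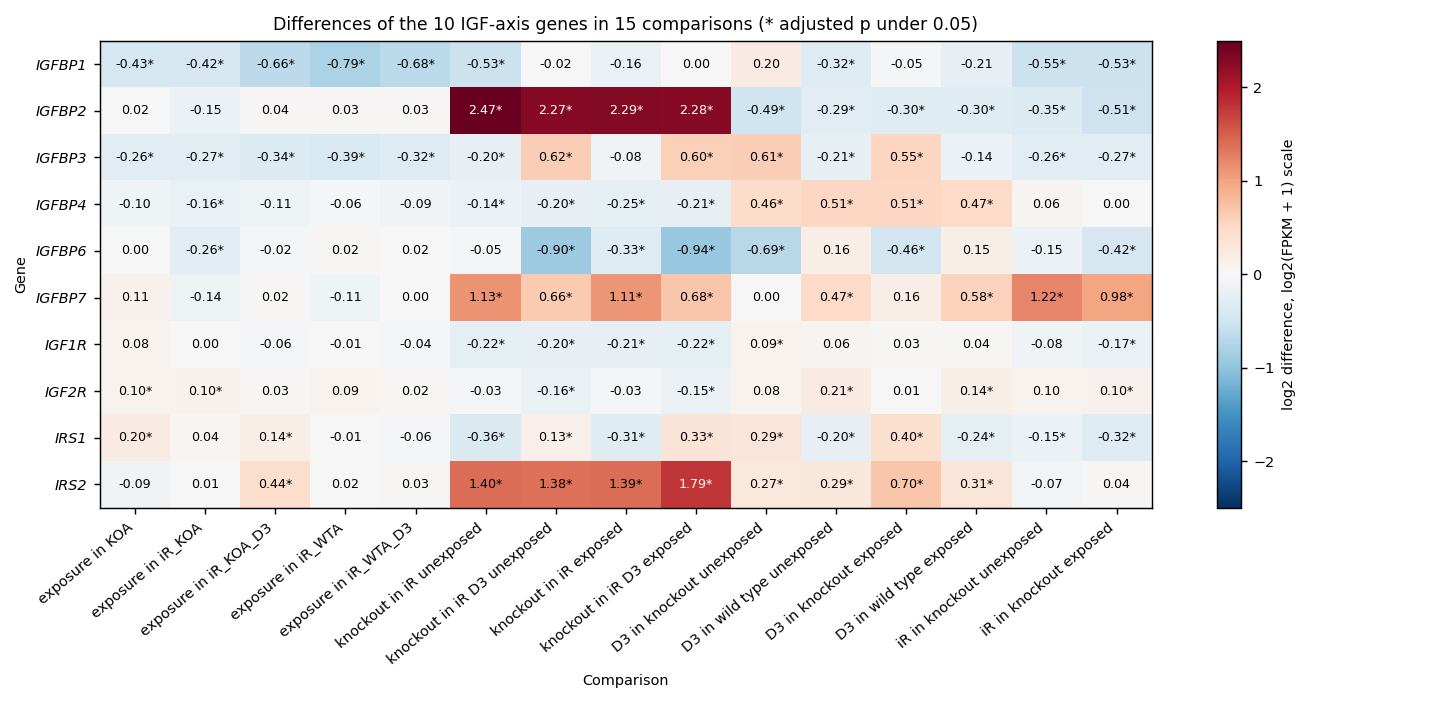
Differences of the 10 genes (rows) in 15 comparisons (columns) on the log2(FPKM + 1) scale, red for higher and blue for lower in the exposed, knockout, D3 or iR libraries; an asterisk marks adjusted p under 0.05. The deepest red cells are IGFBP2 and IRS2 in the 4 knockout columns, and IGFBP3, IGFBP6 and IRS1 change colour between knockout and wild type in the D3 columns.

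Around the members, 9 of 16 tested FOXO factors and targets were higher and 3 lower in unexposed iR knockout cells (27.9% and 37.4% of all tested genes), with a list median of 0.32 against −0.06 over all tested genes. PDK4, a kinase that blocks pyruvate oxidation, read 109, 110.3 and 86.7 FPKM in iR_KOA_NE, against 21.3, 26.9 and 21.7 FPKM in iR_WTA_NE (2.08 ± 0.085, adjusted p = 4.92e-17), and the groups were separate. BCL2L11, which encodes the pro-apoptotic BIM, was higher by 1.12. FBXO32 went the other way, at 3.92, 3.62 and 4.16 FPKM in iR_KOA_NE, against 20.6, 20.7 and 21.0 FPKM in iR_WTA_NE (−2.15 ± 0.048). The FOXO counts in the other conditions were 10 higher and 4 lower under exposure, 8 higher and 4 lower with D3 and 6 higher and 5 lower with both. In the same order, 27.4%, 24.8% and 26.0% of all tested genes were higher and 38.2%, 44.3% and 43.9% lower.

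All 8 tested proteases and inhibitors differed in unexposed iR cells, 3 higher and 5 lower, a split near that of all tested genes. MMP7, a matrix protease able to cleave binding proteins, was higher by 1.95 ± 0.043 and CTSD, the lysosomal protease cathepsin D that travels by the mannose 6-phosphate route, by 1.34 ± 0.054. ADAM12 was lower (−1.04). For the lists that follow, 27.9% of all tested genes were higher and 37.4% lower in the same comparison. The insulin receptor list gave 6 higher and 7 lower of 22 and was led by SH2B3, an adaptor that dampens kinase signalling (−1.26). The PI3K list gave 6 higher and 12 lower of 32, led by the AKT phosphatase PHLPP2 (0.85), and the RAS and ERK list 5 higher and 4 lower of 12. Of the 6 genes for IGF2 mRNA-binding proteins and the mannose 6-phosphate route none was higher and 4 were lower, among them IGF2BP3 (−0.93) and IGF2BP2 (−0.78). IGFBP5, the binding protein outside the member list, read 1.31, 1.44 and 1.10 FPKM in iR_KOA_D3_NE, against 0.0430, 0.0870 and 0.0509 FPKM in iR_WTA_D3_NE. It reached 1 FPKM in that knockout group alone and so passed the filter through it, and no test is given for it.

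The third comparison set libraries with D3 against those without it, among cells that all carry iR. IGFBP4 and IRS2 were higher with D3 in both genotypes, exposed or not, and IGFBP2 was lower in all 4 comparisons. Of all tested genes 8.00% were higher in all 4 and 15.3% lower in all 4. How many of them had separate groups with D3 and without it was not counted. In unexposed cells the D3 difference of IGFBP3, IGFBP6, IRS1, IGFBP1 and IGFBP7 depended on the genotype by the test of D3 by genotype, which was not run in exposed cells.

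IGFBP4 read 1738, 1768 and 1789 FPKM in iR_WTA_D3_NE, against 1254, 1223 and 1234 FPKM in iR_WTA_NE (0.51 ± 0.044, adjusted p = 7.67e-10). In the knockout it read 1547, 1607 and 1471 FPKM in iR_KOA_D3_NE, against 1096, 1115 and 1155 FPKM in iR_KOA_NE (0.46 ± 0.044, adjusted p = 3.03e-09). The groups were separate in both genotypes, and exposed cells gave 0.51 in the knockout and 0.47 in the wild type. The D3 difference did not change with genotype past the test (−0.06 ± 0.063, adjusted p = 0.621). PAPPA, which cleaves IGFBP4, was also higher with D3 in the knockout (0.61 unexposed and 0.73 exposed). In the unexposed wild type all 8 tested genes of its list passed, 5 higher and 3 lower. The wild-type differences of PAPPA are not reported here, so these values do not set the genotypes apart.

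IRS2 was higher by 0.27 in the knockout and 0.29 in the wild type when unexposed, and by 0.70 and 0.31 when exposed (adjusted p at most 0.000179). IGFBP2 was lower, at −0.49 and −0.29 unexposed and −0.30 and −0.30 exposed in the same order. Its calls in the wild type, at 1.56 to 2.90 FPKM, were the less stable ones: the unexposed call was lost without replicate 1 or replicate 3 of iR_WTA_NE (adjusted p = 0.0523 and 0.0578), and the exposed groups overlapped. The exposed call was lost with only the compared groups (adjusted p = 0.0750), without replicate 3 of iR_WTA_D3_EX (−0.19, adjusted p = 0.0870) and without replicate 2 of iR_WTA_EX (adjusted p = 0.0535).

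In unexposed cells IGFBP3 went opposite ways. In the knockout it read 476, 513 and 483 FPKM in iR_KOA_D3_NE, against 313, 325 and 325 FPKM in iR_KOA_NE (0.61 ± 0.060, adjusted p = 3.80e-09). In the wild type it read 304, 340.0 and 314 FPKM in iR_WTA_D3_NE, against 363, 370.2 and 373 FPKM in iR_WTA_NE (−0.21 ± 0.060, adjusted p = 0.00573). The D3 difference in the knockout exceeded that in the wild type by 0.82 ± 0.085 (adjusted p = 9.82e-08). The unexposed fall in the wild type was lost under quantile normalization (−0.14, adjusted p = 0.136). In exposed cells the D3 difference was 0.55 in the knockout (adjusted p = 3.04e-08). In the exposed wild type it was −0.14 and did not pass (adjusted p = 0.0610), and the groups overlapped.

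IGFBP6 fell with D3 in the knockout. It read 36.4, 41.2 and 37.4 FPKM in iR_KOA_D3_NE, against 60.5, 62.3 and 65.0 FPKM in iR_KOA_NE (−0.69 ± 0.076, adjusted p = 2.92e-08), whereas iR_WTA_D3_NE read 72.3, 73.7 and 71.1 FPKM, against 66.1, 62.2 and 65.6 FPKM in iR_WTA_NE (0.16 ± 0.076, adjusted p = 0.0845). The wild-type difference passed under median-of-ratios scaling (0.20, adjusted p = 0.0278), quantile normalization (0.25, adjusted p = 0.00304) and with only the compared groups (adjusted p = 0.00376). The interaction was −0.86 ± 0.108 (adjusted p = 2.29e-06). Its promoter is the only one of the 8 that holds the forkhead core, in capitals at −186 to −180 from the start; 3.42% of all windows hold it. The 250 bases upstream (RefSeq, GRCh38.p14, chr12:53097417-53097666, plus strand, 61.2% G or C) are:
IGFBP6: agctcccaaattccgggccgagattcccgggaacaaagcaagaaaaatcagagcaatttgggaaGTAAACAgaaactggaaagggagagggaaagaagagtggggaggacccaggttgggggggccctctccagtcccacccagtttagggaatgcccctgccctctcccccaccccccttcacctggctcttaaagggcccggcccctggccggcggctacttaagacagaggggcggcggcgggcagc

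IRS1 was higher with D3 in the knockout, at 14.5, 15.5 and 14.6 FPKM in iR_KOA_D3_NE, against 11.9, 11.8 and 12.2 FPKM in iR_KOA_NE (0.29, adjusted p = 1.29e-06). It was lower in the wild type, at 13.8, 13.5 and 13.2 FPKM in iR_WTA_D3_NE, against 15.9, 15.5 and 15.4 FPKM in iR_WTA_NE (−0.20, adjusted p = 0.000297), and in both genotypes the libraries with D3 and without it did not overlap. The interaction was 0.49 ± 0.058 (adjusted p = 8.09e-07). IGFBP1 fell in the wild type (−0.32, adjusted p = 0.00717) and was 0.20 in the knockout (adjusted p = 0.0834), with an interaction of 0.51 ± 0.133 (adjusted p = 0.0078). The fall in the wild type was lost without replicate 3 of iR_WTA_D3_NE (−0.24, adjusted p = 0.0611). The knockout difference of IGFBP1 passed under median-of-ratios scaling (0.29, adjusted p = 0.0131) and quantile normalization (0.28, adjusted p = 0.0136). It also passed with only the compared groups (adjusted p = 0.0211). IGFBP7 rose in the wild type (0.47, adjusted p = 9.67e-05) and was 0.00 in the knockout (adjusted p = 0.979), with an interaction of −0.47 ± 0.126 (adjusted p = 0.00989).

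Of the receptors, IGF2R was higher with D3 in the wild type (0.21 unexposed, adjusted p = 8.18e-05, and 0.14 exposed, adjusted p = 0.00432). The exposed call was lost with only the compared groups (adjusted p = 0.107) and without replicate 2 of iR_WTA_D3_EX (0.09, adjusted p = 0.0550). In the knockout the IGF2R differences of 0.08 and 0.01 did not pass, although both passed under either scaling alternative, at 0.10 to 0.19. IGF1R passed in unexposed knockout cells (0.09, adjusted p = 0.0481), a call lost without the filter on low values (adjusted p = 0.0527). Under median-of-ratios scaling and quantile normalization it also passed in exposed knockout cells (0.12 and 0.10, against 0.03 unscaled) and in unexposed wild-type cells (0.10 and 0.13, against 0.06 unscaled), and under quantile normalization in exposed wild-type cells (0.10, adjusted p = 0.0488).

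In the unexposed knockout 5 members were higher and 2 lower with D3, where 19.2% of all tested genes were higher and 34.5% lower. In the unexposed wild type it was 4 and 4 (22.3% and 26.3%), in the exposed knockout 4 and 2 (18.1% and 34.1%) and in the exposed wild type 4 and 2 (20.0% and 27.4%). The test of D3 by genotype in unexposed cells called 5 of the 10 members, and 17.5% of all tested genes. It shares its libraries with the D3 and knockout comparisons in unexposed iR cells.

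**Figure D4:**
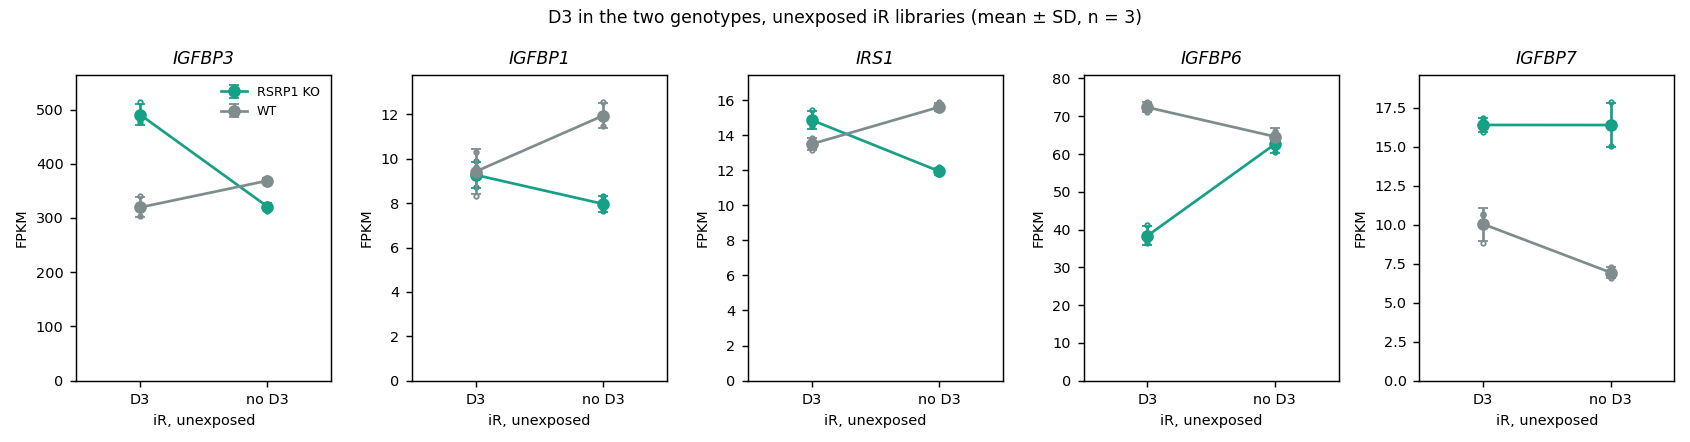
FPKM of 5 genes in unexposed iR libraries with D3 and without it (x axis), knockout in green and wild type in grey; filled points and bars give mean ± SD, open points the 3 libraries. The lines for IGFBP3 and IRS1 cross, IGFBP6 is near 38.3 FPKM in knockout cells with D3 while the other 3 groups lie at 62.6 to 72.4 FPKM, and IGFBP7 in the knockout is flat at 16.4 FPKM.

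In the 7 lists, 5 of 8 tested proteases and inhibitors were higher and 2 lower with D3 in unexposed knockout cells, and 5 and 3 in wild-type cells. Beside these counts and those below, 19.2% of all tested genes were higher and 34.5% lower in the unexposed knockout. In the unexposed wild type the shares were 22.3% and 26.3%. STC1, which inhibits PAPPA, rose in both (0.67 in the knockout and 0.68 in the wild type), and STC2 fell in the knockout (−1.29). The D3 by genotype difference of STC2 was −0.95 (adjusted p = 1.10e-06), smaller than that fall. Its wild-type difference was thus negative too, by less. FOXO factors and targets gave 9 higher and 5 lower of 16 in the knockout and 9 higher and 1 lower in the wild type, with medians of 0.22 and 0.23, against −0.06 and −0.01 over all tested genes. CITED2, a transcriptional coregulator, rose in both (0.60 and 0.48). The insulin receptor list gave 8 higher and 6 lower of 22 in the knockout and 7 higher and 3 lower in the wild type. TRIB3 was −0.76 in the knockout and 0.60 in the wild type. The PI3K list gave 6 higher and 5 lower of 32 and 7 higher and 8 lower. EIF4EBP1, the translation repressor that mTOR inactivates, fell in the unexposed knockout (−0.85) and in exposed cells of both genotypes (−0.80 in the knockout and −0.41 in the wild type). In unexposed cells its D3 by genotype difference was −0.45 (adjusted p = 0.000218), smaller than the knockout fall. Its unexposed wild-type difference was thus negative too. PIK3IP1, an inhibitor of PI3K, rose in the wild type (1.22). The RAS and ERK list gave 0 higher and 4 lower of 12 and 1 higher and 3 lower. The list of IGF2 mRNA-binding proteins gave 3 higher and 1 lower of 6 and 1 higher and 1 lower.

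The label iR could be compared only in the knockout. For iR, too, the share of all tested genes with separate groups was not counted. IGFBP7 was higher with iR, at 16.3, 17.8 and 15.0 FPKM in iR_KOA_NE, against 5.70, 6.44 and 7.28 FPKM in KOA_NE (1.22 ± 0.089, adjusted p = 8.31e-11). In exposed cells it read 14.3, 14.3 and 15.9 FPKM in iR_KOA_EX, against 7.56, 6.25 and 7.33 FPKM in KOA_EX (0.98 ± 0.089, adjusted p = 3.32e-09). The 2 groups were separate each time. IGFBP1 (−0.55 unexposed and −0.53 exposed), IGFBP2 (−0.35 and −0.51), IGFBP3 (−0.26 and −0.27) and IRS1 (−0.15 and −0.32) were lower in both. IGFBP6 (−0.42) and IGF1R (−0.17) were lower in exposed cells. In unexposed cells their groups were also separate but the differences did not pass (−0.15 and −0.08), although IGFBP6 passed under quantile normalization (adjusted p = 0.0148) and with only the compared groups (adjusted p = 0.0164). The test of exposure by iR passed for neither (adjusted p = 0.188 and 0.452). IRS2 passed in neither (−0.07 and 0.04).

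Thus 1 member was higher and 4 lower with iR in unexposed cells (background 18.7% and 19.8%), and 2 were higher and 6 lower in exposed cells (16.3% and 23.4%). The 2 higher in exposed cells were IGFBP7 and IGF2R (0.10, adjusted p = 0.0398), and the second was lost when only the compared groups were fitted (adjusted p = 0.0754). Of the lists, proteases and inhibitors gave 3 higher and 2 lower of 8 in unexposed cells, with STC2 at 15.2, 17.2 and 16.3 FPKM in iR_KOA_NE, against 5.35, 4.97 and 5.14 FPKM in KOA_NE (1.49 ± 0.081). GRB14, an adaptor that inhibits the insulin receptor, was lower (−0.92) and TRIB3 higher (1.04), within counts of 5 higher and 6 lower of 22.

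The genes whose log2(FPKM + 1) followed a member most closely over the 30 libraries were described by Pearson's r, with no test, since the libraries share groups. IGFBP2 was followed by CAPG (0.994), IRS2 by PDE3A (0.988), IGFBP4 by DKK3 (0.973) and IGFBP7 by RHOQ (0.944). For IGF1R it was BACE1 (0.943), for IGF2R GLMP (0.926), for IGFBP6 PSME2 (0.917) and for IGFBP3 TEF (0.859). IRS1 had no close follower, with ITGB1 highest at 0.684.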

How the data were processed

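RNA of A549 cells was enriched with oligo(dT) and sequenced, per the labels' protocols, and fastp, HISAT2, HTSeq and the build GRCh38 are named in the submitters' processing notes; versions, annotation and strand setting were not given in any source used here, so reads of overlapping or near-identical genes cannot be assigned with certainty. The authors deposited 1 FPKM value per gene and library. Columns were matched to the 30 samples by name, while 6 columns that no sample's name fits were left out. For all 26801 genes FPKM steps corresponded to whole reads (tolerance 0.01), totalling 34620432 to 38939336 per library (highest over lowest 1.12). FPKM does not correct for composition: a gain by abundant genes lowers all others.

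Values were fitted as log2(FPKM + 1), which understates changes of low genes, for the 12086 genes that reached 1 FPKM in 3 or more libraries, in one limma 3.58.1 model (R 4.3.3, moderated test with trend, 20 residual degrees of freedom) over 10 groups, with 15 simple comparisons and 6 interactions, two-sided, Benjamini-Hochberg within each comparison, threshold 0.05. The procedure was tested on simulated data. Alternatives were a pseudocount of 0.1, no filter, median-of-ratios scaling, quantile normalization, only the compared groups, a replicate block and leaving out each library. Same-numbered libraries deviated together (all 3 correlations above 0.1) in 2 of 15 comparisons, exposure in iR_KOA_D3 and iR in exposed knockout cells; correlations ran from −0.33 to 0.31. In these 2 the block changed no call on a member. The members and lists were chosen with earlier results of these data known. All members were named in every comparison, and of each list up to 3 genes with the largest difference past the test per comparison, some of them also given in other comparisons. The gene named as most like a member has the highest Pearson's r with it over the 30 libraries; that for IGFBP1 is not reported here. Promoters and positions are from RefSeq (GRCh38.p14).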

Additional observations from a re-analysis of the deposited data

Results flagged for a closer look

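The differences of 6 members depended on the genotype or on D3 by a test of the difference itself (limma, Benjamini-Hochberg over all tested genes). For IRS2, the exposure difference under D3 was larger in the knockout than in the wild type by 0.41 (adjusted p = 0.00414), and in knockout cells it was larger with D3 than without it by 0.43 (adjusted p = 0.00206). In unexposed cells the D3 difference in the knockout minus that in the wild type was 0.82 for IGFBP3, 0.51 for IGFBP1 and 0.49 for IRS1. It was −0.86 for IGFBP6 and −0.47 for IGFBP7. Groups of 3 libraries were not tested for single deviating libraries.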

How the results depend on the processing

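Of 210 member differences 97 passed the test, 81 of them in every one of the 6 other settings and 30 left-out libraries; 16 were lost in at least 1, and none that passed in both changed sign. The falls of IGFBP1 and IGFBP3 with exposure, and the rises of IGFBP2, IRS2 and IGFBP7 in the knockout, were kept throughout. With only the compared groups fitted, the members past the test for exposure in iR_KOA numbered 2, against 5 with all groups, and those for exposure by genotype under D3 numbered 0, against 1; leaving out a library gave 2 to 5 and 1 to 2. The library behind the 2 is replicate 2 of iR_KOA_EX, and replicate 2 of iR_WTA_D3_EX, when left out, added IRS1 (0.24, adjusted p = 0.0231).

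With the replicate block, IGF2R under exposure in KOA (adjusted p = 0.0525) and IGF1R with D3 in unexposed knockout cells (adjusted p = 0.0565) were lost and IGFBP3 with D3 in exposed wild-type cells (−0.14, adjusted p = 0.00814) was gained, although replicate numbers do not pair libraries in these comparisons; no other call on a member changed.

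Over all genes, 65 passed for exposure by genotype without D3, 40 with a pseudocount of 0.1, 17 with only the compared groups and 30 to 74 with a library left out. With only the compared groups, 2131 passed for exposure in iR_KOA (4272 with all groups), 106 for exposure by genotype under D3 (288; 170 to 504 with a library left out), 158 for exposure by D3 in the knockout (500; 245 to 910) and 52 for exposure by D3 in the wild type (202; 88 to 506). The causes were not tested.

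Scaling moved the share of higher calls by over 10 points in 16 of 42 checks, and the median of all genes by at most 0.0833. Under median-of-ratios and quantile scaling, with the unscaled share in brackets, it was for exposure in iR_KOA 48.5% and 48.1% (36.9%), for exposure in iR_WTA_D3 48.0% and 47.7% (36.6%), for the knockout with D3 unexposed 47.8% and 46.8% (35.9%), for D3 in unexposed knockout cells 54.0% and 51.8% (35.7%), for D3 in exposed knockout cells 52.3% and 51.1% (34.7%) and for D3 by genotype 48.1% and 47.1% (29.6%). It was 55.5% under median-of-ratios scaling for D3 in exposed wild-type cells (42.3%), 59.0% under median-of-ratios scaling for exposure by D3 in the wild type (45.0%), 52.8% under quantile normalization for iR in exposed knockout cells (41.1%) and 44.6% under quantile normalization for exposure by iR (32.7%).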
